A study of Mus musculus with 2 samples.

Results

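The nuclei described here were called glutamatergic or GABAergic and were assigned by hashtag to the mouse arcuate nucleus (ARC) in a single-nucleus RNA-seq library. A nucleus of ARC tissue was called glutamatergic when it held at least 1 unique molecular identifier (UMI, a counted RNA molecule) of Slc17a6 and none of Slc32a1, Gad1 or Gad2. It was called GABAergic when it held no Slc17a6 UMI and UMIs of at least 2 of the 3 GABA genes. The members were chosen by the measured UMIs of these 4 genes and of the hashtags, so their own levels are given as a description and support nothing, and all other genes were compared. By this rule 350 nuclei were glutamatergic and 757 were GABAergic, together 1107 of the 4395 ARC nuclei and of the 11409 barcodes in the matrix.

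All nuclei came from wild type C57BL/6J males aged 10 to 12 weeks, and the labels name no treatment. Hypothalamic tissue of pooled mice was microdissected, frozen and homogenized, and neuronal nuclei were sorted by NeuN staining. Nuclei of the ARC and of the neighbouring paraventricular hypothalamus (PVH) carried separate hashtag antibodies and were sequenced together on the 10x platform. The files gave no map from nuclei to mice, so the library counted as 1 sample, no statistical test between the classes was possible and no p-value was computed. Intervals are 95% and cover counting error only, and since UMIs of 1 nucleus are not independent, they are too narrow as a measure of differences between mice.

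Glutamatergic neurons load glutamate into synaptic vesicles with the transporter VGLUT2, which Slc17a6 encodes, and mostly excite the cells they contact. GABAergic neurons make GABA from glutamate with the decarboxylases encoded by Gad1 and Gad2, load it with the vesicular transporter encoded by Slc32a1, and mostly inhibit their targets. The ARC holds both kinds side by side: AGRP neurons, which drive feeding, are GABAergic, KNDy neurons, which express kisspeptin, neurokinin B and dynorphin and pace reproductive hormone release, are largely glutamatergic, and POMC neurons, which restrain feeding, include both.

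Promoter sequences are shown for a rule gene of each transmitter and for the gene whose interval lay farthest on the GABAergic side. They are the 250 bases upstream of a RefSeq start site, 5′ to 3′ on the gene's strand, in the build GRCm38.p6. The first is Slc17a6 (chr7:51621580-51621829, plus strand). The second is Slc32a1 (chr2:158610508-158610757, plus strand), where capitals mark the stretch between the annotated start of Gm14204, which runs away on the other strand, and the Slc32a1 start site of RefSeq. The third lies within the Dlx6os1 gene (chr6:6869534-6869783, minus strand), and capitals mark TAATTA, the core that many homeodomain proteins bind.
Slc17a6: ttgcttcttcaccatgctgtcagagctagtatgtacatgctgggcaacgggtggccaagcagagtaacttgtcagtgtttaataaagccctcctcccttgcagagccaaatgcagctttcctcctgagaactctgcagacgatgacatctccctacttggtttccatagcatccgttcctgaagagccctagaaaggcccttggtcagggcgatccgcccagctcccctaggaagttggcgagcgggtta
Slc32a1: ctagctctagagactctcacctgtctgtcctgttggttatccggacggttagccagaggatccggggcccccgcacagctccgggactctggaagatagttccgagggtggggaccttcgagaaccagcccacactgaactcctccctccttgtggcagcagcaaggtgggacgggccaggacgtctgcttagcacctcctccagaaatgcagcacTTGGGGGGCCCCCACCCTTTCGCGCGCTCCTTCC
Dlx6os1: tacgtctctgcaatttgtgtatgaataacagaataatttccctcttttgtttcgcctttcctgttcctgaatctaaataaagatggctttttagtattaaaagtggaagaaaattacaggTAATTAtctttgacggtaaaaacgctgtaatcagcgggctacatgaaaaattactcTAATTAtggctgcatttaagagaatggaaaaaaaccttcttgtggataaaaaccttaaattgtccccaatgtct
TAATTA, which reads the same on both strands, occurred in 2 places in this Dlx6os1 sequence, in none of the other sequences shown, and in 4.84% of 32851 such mouse sequences. Upstream of another RefSeq start site of Slc17a6 (chr7:51624387-51624636, plus strand), not shown, it occurred in 1 place. The same held for another start site of Dlx6os1 (chr6:6861684-6861933, minus strand). TAATTA was present in 2.5% of 120 promoter sequences of genes at least 2-fold higher in glutamatergic nuclei, in 5.41% of 148 of genes at least 2-fold higher in GABAergic nuclei and in 2.69% of 11202 of all genes compared. Both Dlx6os1 sequences were among the 148.

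In the glutamatergic class Slc17a6 had 508 UMIs, or 283 CPM (counts per 1000000 UMIs of the class). It entered by 1 UMI in 245 nuclei, by 2 in 67 and by 3 or more in 38. Among the GABAergic nuclei 664 held a Gad2 UMI, 573 a Gad1 UMI and 380 an Slc32a1 UMI. Just inside the threshold 654 GABAergic nuclei held 2 of the 3 genes, most often Gad1 with Gad2 (377 nuclei), then Slc32a1 with Gad2 (184) and Slc32a1 with Gad1 (93), and 103 held all 3. Just outside, 1497 nuclei held 1 GABA gene without Slc17a6. A further 275 held Slc17a6 with 1 GABA gene, 99 held Slc17a6 with 2 or 3 of them, and 1417 held none of the 4 genes.

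The classes were of similar depth. The glutamatergic nuclei made up 7.96% of the ARC nuclei (exact binomial interval 7.18 to 8.80%) and had a median of 4913.5 UMIs and 1794404 UMIs in all. The GABAergic nuclei made up 17.2% (16.1 to 18.4%) and had a median of 5214 UMIs and 4325258 UMIs in all. Nuclei with Slc17a6 and 2 or 3 GABA genes had a median of 5874 UMIs, and nuclei with none of the 4 genes 4475. In 68 nuclei of clusters led by glial or tanycyte genes, with a median of 3054.5 UMIs, 5.88% held an Slc17a6 UMI and 23.5% a UMI of any GABA gene, against 16.6% and 60.4% of the other 4327 nuclei (median 4787 UMIs). In these 68 nuclei 2 met the glutamatergic rule and 4 the GABAergic rule.

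The hashtags separated the tissues weakly. The median ratio of ARC to PVH hashtag UMIs was 1.19 in glutamatergic and 1.28 in GABAergic nuclei, where the rule asked for 0.8. Just inside this limit, at ratios under 1, lay 88 glutamatergic and 150 GABAergic nuclei, and just outside it, at 0.6 to 0.8, another 85 and 164. A ratio of at least 2 was reached by 38 and 98 nuclei. The GABAergic class was 2.16 times as large as the glutamatergic class in ARC nuclei, and 1.02 times as large in the 5775 nuclei outside the hashtag rule, which held 905 GABAergic and 888 glutamatergic nuclei.

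Of 11195 genes with at least 50 UMIs over both classes, 124 were at least 2-fold higher in glutamatergic nuclei (1.11% of the genes compared) and 135 at least 2-fold higher in GABAergic nuclei (1.21%). The interval of the ratio lay wholly on the same side of 0 for all 124 and for 133 of the 135. The genes were picked by the ratio of the same counts, so these intervals add no support. Most ratios were small: 90.5% of genes lay within 1.5-fold, the median log2 ratio (glutamatergic over GABAergic, the direction used throughout) was -0.04, and ratios ran from -3.37 to 3.35. The plot of levels shows the genes past 2-fold on both sides of the diagonal.

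**Figure D1:**
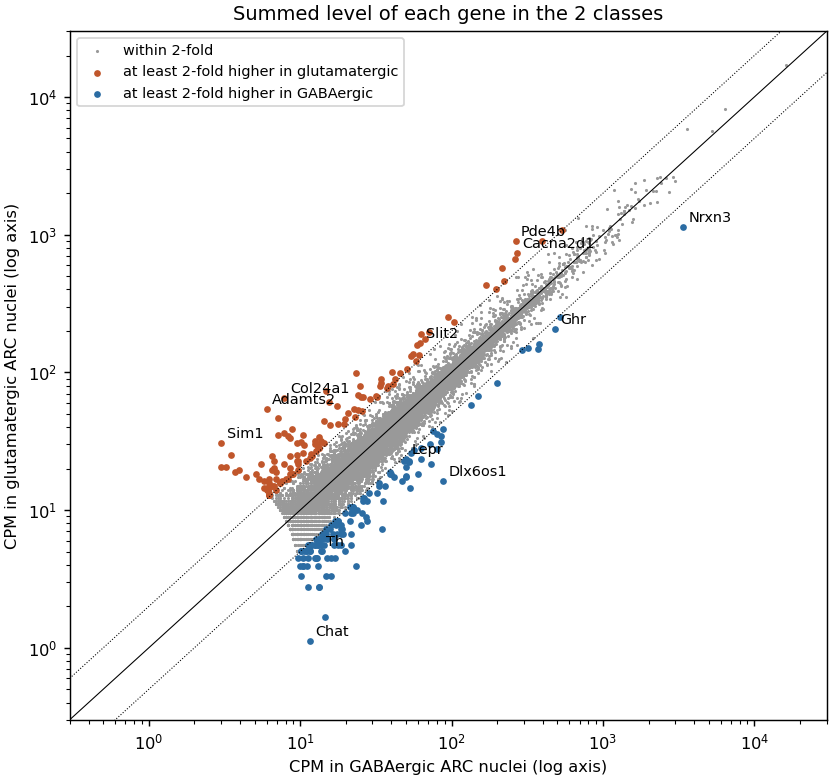
Summed level of each of the genes compared in GABAergic (x axis) and glutamatergic (y axis) ARC nuclei, in CPM on log axes; the solid line marks equal levels and the dotted lines 2-fold differences. Orange points are the 124 genes at least 2-fold higher in glutamatergic nuclei, blue points the 135 at least 2-fold higher in GABAergic nuclei, and Nrxn3 stands below the diagonal at over 1000 CPM in both classes.

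The classes were drawn from different kinds of nuclei that met the ARC hashtag rule, as the plot of clusters shows. Clustering of all ARC nuclei without the rule genes gave 19 clusters. Cluster 7, KNDy-like by all 5 of its markers (Kiss1, Tac2, Pdyn, Nr5a2, Esr1), held 95 glutamatergic and 11 GABAergic nuclei, or 27.1% of the glutamatergic class. Of these markers Kiss1 was sparse, with 2 UMIs in the whole glutamatergic and 1 in the whole GABAergic class. Cluster 10, which had all 5 markers of the ventromedial hypothalamus (VMH; Nr5a1, Fezf1, Gpr149, Adcyap1, Bdnf), held 55 glutamatergic and 5 GABAergic nuclei, or 15.7% of the glutamatergic class. Nr5a1 and Fezf1 were sparse as well, with 4 and 5 UMIs in the whole glutamatergic and 1 and 2 in the whole GABAergic class. The VMH adjoins the ARC and is not part of it, and whether the nuclei of cluster 10 came from the VMH was not tested. Cluster 14, led by genes such as Smoc2, Pdzrn3, Trhr, Alk and Ros1, held 30 and 3, and cluster 16, led by Ebf3 and Sim1, held 12 and 0. Cluster 12, led by Rab37 and Car12, held 27 and 5. It had 3 of 5 POMC markers (Pomc, Sntb1, Tbx3) and 2 of 5 KNDy markers (Pdyn, Esr1).

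On the GABAergic side, cluster 1, AGRP-like by all 5 markers (Agrp, Npy, Acvr1c, Corin, Otp), held 160 GABAergic and 12 glutamatergic nuclei, or 21.1% of the GABAergic class. Clusters 3, 4, 6 and 8 held 66 to 78 GABAergic nuclei each and 3 to 6 glutamatergic ones. Cluster 4 had 3 of 5 KNDy markers (Pdyn, Nr5a2, Esr1). Cluster 8 was led by Chat and also had Ghrh and Gal among its markers. Cluster 13, dopaminergic-like by all 4 markers (Th, Slc6a3, Slc18a2, Ddc), held 25 GABAergic and 2 glutamatergic nuclei. Clusters 11 and 15 had 3 of these 4 markers each, and held 51 and 22 GABAergic and 6 and 1 glutamatergic nuclei. Cluster 9, with 3 of 5 POMC markers (Cartpt, Sntb1, Tbx3), held 33 GABAergic and 7 glutamatergic nuclei. Clusters 2 and 5 were mixed: cluster 2, led by Lef1, Onecut3 and Bnc2, held 63 glutamatergic and 129 GABAergic nuclei, and cluster 5, POMC-like by all 5 markers (Pomc, Cartpt, Prdm12, Sntb1, Tbx3), held 20 and 28.

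**Figure D2:**
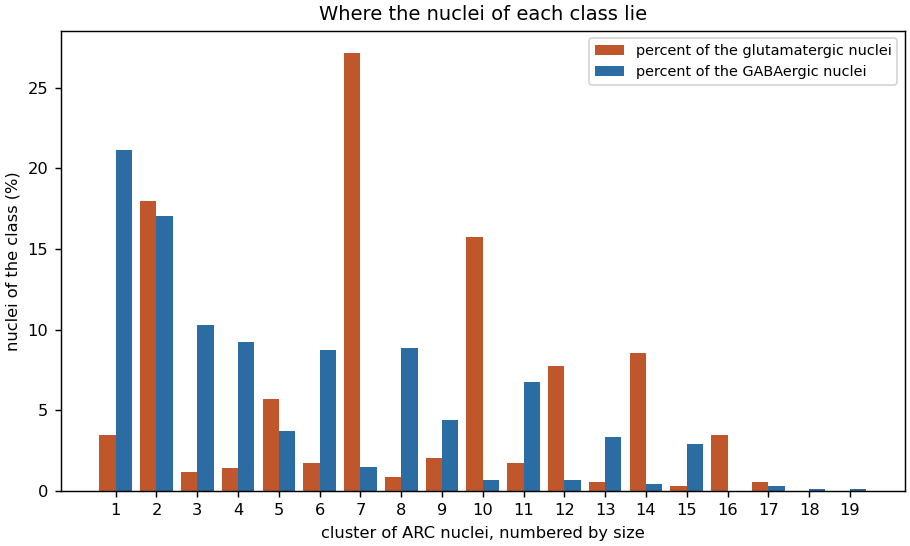
Percent of the 350 glutamatergic (orange) and 757 GABAergic (blue) nuclei in each of the 19 clusters of ARC nuclei, numbered by size. Cluster 7 held 27.1% of the glutamatergic class and cluster 1 held 21.1% of the GABAergic class, while clusters 2 and 5 held nuclei of both.

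Since the classes differed in their make-up, many ratios are followed by their value without the cluster that contributed most UMIs of the gene in its higher class. A within-cluster ratio, which compares glutamatergic and GABAergic nuclei of the same cluster and combines the clusters, is given for the 30 genes that lead. Both were chosen after the data were seen. With a ratio made within clusters, 101 genes were at least 2-fold higher in glutamatergic and 178 in GABAergic nuclei, and these included 28 of the 124 and 46 of the 135. Of the 30 leading genes, 12 stayed past 2-fold the same way within clusters, 8 of 15 on the glutamatergic and 4 of 15 on the GABAergic side. The 8 included 9630013A20Rik, Bcas1 and Zeb2, whose glutamatergic UMIs came most from cluster 17. That cluster, led by oligodendrocyte genes, held 2 glutamatergic and 2 GABAergic nuclei.

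The long non-coding RNA Dlx6os1, transcribed from the Dlx5 and Dlx6 locus (chr6:6820189-6871592, minus strand), had 29 and 380 UMIs in glutamatergic and GABAergic nuclei. Its level was 16.2 CPM in glutamatergic and 87.9 CPM in GABAergic nuclei (log2 ratio -2.44, interval -3.04 to -1.90). It was seen in 16 glutamatergic and 227 GABAergic nuclei, and in 3 of the 68 nuclei of the glial and tanycyte clusters. The ratio was -2.31 without cluster 2, which gave 30.5% of its GABAergic UMIs, and -1.67 within clusters. Dlx6os1 overlaps Dlx6 on the other strand, and the counting is not stated to use strand. Whether UMIs of one gene were counted for the other is not known.

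Nrxn3 (chr12:88722876-90334935, plus strand), a presynaptic adhesion molecule of the neurexin family, had 2030 and 14706 UMIs. Its level was 1131 CPM in glutamatergic and 3400.0 CPM in GABAergic nuclei (log2 ratio -1.59, interval -1.66 to -1.52), and it was detected in 77.4% of the glutamatergic and 98.7% of the GABAergic nuclei. The ratio was -1.70 without cluster 2, -1.31 without cluster 7 and -0.69 within clusters. In the glial and tanycyte clusters Nrxn3 was at 920.0 CPM and in 52.9% of nuclei.

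Gm14204, a non-coding transcript (chr2:158595472-158610723, minus strand), starts 44 bases from the annotated start of Slc32a1 and runs the other way, from the left edge of the capitals of the Slc32a1 sequence above. It had 13 and 150 UMIs, or 7.24 against 34.7 CPM (log2 ratio -2.26, interval -3.20 to -1.44), and the ratio was -0.86 within clusters. Gad1os, which overlaps Gad1 on the other strand, was at 2.79 against 13.4 CPM (log2 ratio -2.27, interval -3.94 to -0.96). Without a stated strand it is not known whether its UMIs include some of Gad1, which the rule used. Gm15261 lies wholly within Arhgap6, a GTPase-activating protein, on the other strand. The pair had nearly the same ratios, -1.31 for Gm15261 (149 against 370.2 CPM) and -1.23 for Arhgap6 (161 against 378 CPM), and both were near 0 within clusters (-0.04 and -0.10).

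Other genes that led on the GABAergic side came mainly from 1 or a few clusters. Chat, the enzyme that makes acetylcholine, had 2 and 50 UMIs (log2 ratio -3.37, interval -6.46 to -1.45), and cluster 8 gave 90% of those in GABAergic nuclei, and its within-cluster ratio was -0.38. The collectin Colec12 had 6 and 69 UMIs (log2 ratio -2.25, interval -3.75 to -1.06). Without cluster 8 its ratio was -0.23, on fewer UMIs than the minimum, and within clusters -0.22. The splicing regulator Mbnl3 had 7 and 101 UMIs (log2 ratio -2.58, interval -3.93 to -1.49) and 6030498E09Rik 3 and 63 UMIs (log2 ratio -3.12, interval -5.44 to -1.51). Without cluster 8 these ratios were -1.89 and -2.22, that of 6030498E09Rik on fewer UMIs than the minimum. Both remained at least 2-fold higher in GABAergic nuclei without that cluster, and within clusters (-1.49 and -4.13).

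Dach2, a transcriptional cofactor, was at 14.5 CPM in glutamatergic and 53.2 CPM in GABAergic nuclei (log2 ratio -1.88, interval -2.52 to -1.29), and the ratio held without cluster 2 (-1.82) and within clusters (-1.62). The diacylglycerol kinase Dgkk was at 21.7 against 72.6 CPM (log2 ratio -1.74, interval -2.26 to -1.26) and the interleukin 1 receptor accessory protein Il1rap at 18.4 against 59.9 CPM (log2 ratio -1.70, interval -2.27 to -1.18). Within clusters both fell short of 2-fold, at -0.87 and -0.98. The ubiquitin ligase component Asb4 was at 31.2 against 84.9 CPM (log2 ratio -1.44, interval -1.88 to -1.03), with -0.34 within clusters. Rasgrp1, an activator of Ras, was at 27.9 against 80.7 CPM (log2 ratio -1.53, interval -1.99 to -1.10). Cluster 1 gave 48.1% of its GABAergic UMIs, and within clusters its ratio was 0.07.

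On the glutamatergic side, Pde4b (chr4:102087543-102607259, plus strand), a phosphodiesterase that breaks down cyclic AMP, had 1616 and 1147 UMIs. Its level was 901 CPM in glutamatergic and 265 CPM in GABAergic nuclei (log2 ratio 1.76, interval 1.65 to 1.87), and it was detected in 75.7% of the glutamatergic and 49.3% of the GABAergic nuclei. Without the KNDy-like cluster 7, which gave 37.1% of its glutamatergic UMIs, the ratio was 1.61, but within clusters it was 0.35. The glial and tanycyte clusters had 1946 CPM of Pde4b, with a UMI in 70.6% of nuclei, and without them the ratio was 1.80.

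Adamts2 (chr11:50602084-50807573, plus strand), a secreted protease that trims procollagen, had 97 and 26 UMIs. Its level was 54.1 CPM in glutamatergic and 6.01 CPM in GABAergic nuclei (log2 ratio 3.17, interval 2.53 to 3.85), and the ratio was 2.04 without cluster 7 and 1.02 within clusters. Chst8, a sulfotransferase that modifies the sugars of pituitary hormones, was at 39.0 against 8.79 CPM (log2 ratio 2.15, interval 1.56 to 2.76), and its ratio stayed past 2-fold both without cluster 2 (1.86) and within clusters (1.39). Pdzrn3, a ubiquitin ligase with PDZ domains, was at 20.6 against 3.01 CPM (log2 ratio 2.78, interval 1.83 to 3.81), and the receptor tyrosine kinase Ros1 at 36.2 against 7.86 CPM (log2 ratio 2.20, interval 1.58 to 2.85). Cluster 14 gave 45.9% and 36.9% of their glutamatergic UMIs. Without it both stayed past 2-fold (2.25 and 1.65), Pdzrn3 on fewer UMIs than the minimum. Within clusters Pdzrn3 was at 0.25, short of 2-fold, and Ros1 at 1.07. Gm21798, a gene model, was at 60.7 against 15.5 CPM (log2 ratio 1.97, interval 1.52 to 2.43), and at 1.47 without cluster 16 and 0.81 within clusters.

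Several genes with large ratios belonged to the KNDy-like cluster 7. The collagen gene Col24a1 was at 64.6 CPM in glutamatergic and 7.86 CPM in GABAergic nuclei (log2 ratio 3.04, interval 2.48 to 3.64), 98.3% of its glutamatergic UMIs came from cluster 7, and its ratio without that cluster was -1.33, on fewer UMIs than the minimum. Rxfp1, the relaxin receptor, was at 98.6 against 23.4 CPM (log2 ratio 2.08, interval 1.72 to 2.45) and at -0.03 without cluster 7. For Col2a1, another collagen gene, the ratio moved from 2.85 to 1.29, for 4933406B17Rik from 2.71 to 1.28 and for the LIM homeodomain gene Lhx5 from 2.67 to 1.35. Without cluster 7 Col2a1 and Lhx5 rested on fewer UMIs than the minimum. Within clusters Col2a1 was at 1.52, and Col24a1, Rxfp1, 4933406B17Rik and Lhx5 fell short of 2-fold, at -0.35, 0.67, 0.09 and 0.37.

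Another set came from 2 glutamatergic nuclei of cluster 17, whose leading genes were those of oligodendrocytes and their precursors. These nuclei gave 84.0% of the glutamatergic UMIs of 9630013A20Rik (log2 ratio 2.30, interval 1.86 to 2.76), 88.2% of those of the myelin-associated gene Bcas1 (log2 ratio 2.36, interval 1.46 to 3.31), 56.8% of those of the cadherin Cdh20 (log2 ratio 1.52, interval 0.86 to 2.19) and 47.6% of those of the transcription factor Zeb2 (log2 ratio 2.29, interval 1.65 to 2.96). Without cluster 17 the ratios were -0.33, 0.69, 0.31 and 1.67, that of Bcas1 on fewer UMIs than the minimum. Zeb2 alone among the 4 stayed past 2-fold. Within clusters, cluster 17 included, the leading genes 9630013A20Rik, Bcas1 and Zeb2 were at 3.15, 2.03 and 2.40.

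**Figure D3:**
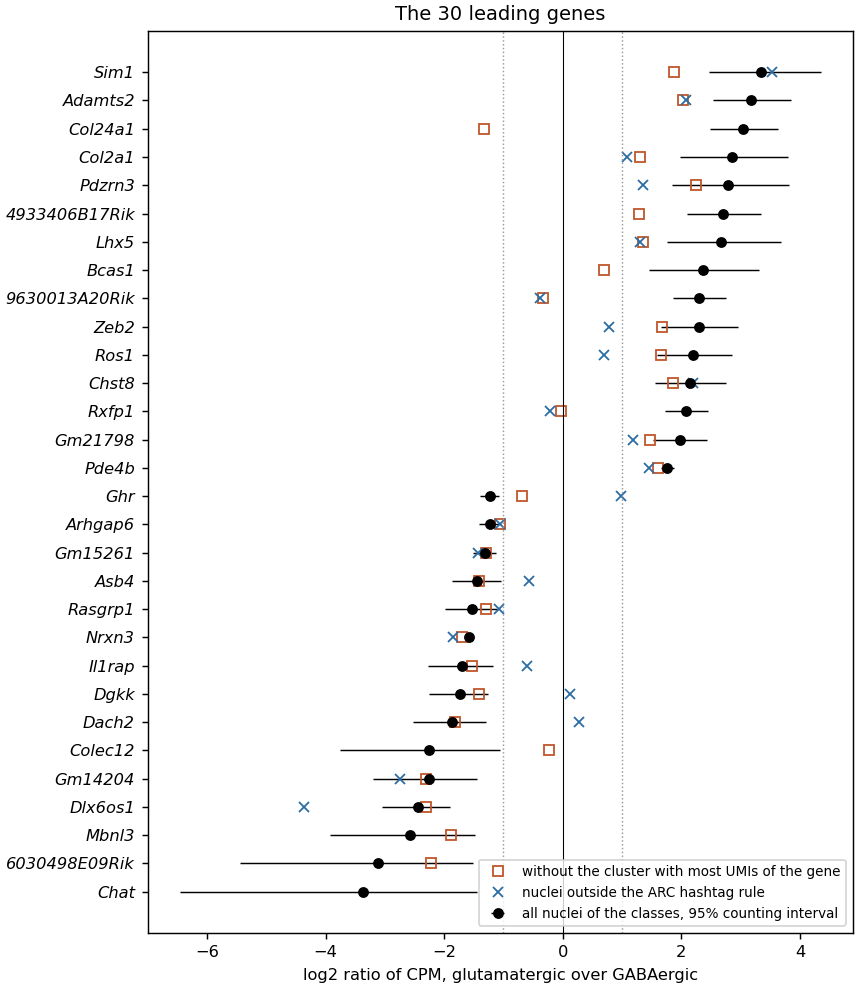
Log2 ratio of CPM, glutamatergic over GABAergic, of the 30 leading genes (15 a side, ranked by the interval bound nearest to no difference). Black points and bars are all nuclei of the classes with 95% counting intervals, open squares the ratio without the cluster that gave most UMIs of the gene, and crosses the nuclei outside the ARC hashtag rule where the gene reached 50 UMIs; the squares of Col24a1, Rxfp1 and 9630013A20Rik lie left of 0, and Chat has no square.

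A list made for transcription factors of forebrain GABAergic neurons also held the non-coding RNA Dlx6os1. This list and those below were chosen with earlier results of these data known, so their counts are a description. Of its 42 genes 18 reached the minimum. Of these, 5 (Dlx6os1, Lhx1, Dlx1, Otp and Pbx3) were at least 2-fold higher in GABAergic nuclei, where 1.21% of all genes were. In glutamatergic nuclei 1 (Lhx5) was, where 1.11% of all genes were. The median log2 ratio was -0.67, where all genes had -0.04. Intervals lay wholly below 0 for 10 of the 18, and for 9.02% of all genes. Besides Dlx6os1, the LIM homeodomain gene Lhx1 was at 3.34 against 14.8 CPM (log2 ratio -2.15, interval -3.64 to -0.95) and Dlx1, a homeobox gene that drives GABAergic fate in the forebrain, at 5.57 against 17.8 CPM (log2 ratio -1.68, interval -2.79 to -0.72). Both stayed past 2-fold without the cluster giving the largest share of their UMIs (-2.09 and -1.38), and were at -1.54 and -0.90 within clusters.

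Otp, a homeodomain gene of AGRP and PVH neurons, was at 8.92 against 27.3 CPM (log2 ratio -1.61, interval -2.47 to -0.85), and 55.1% of its GABAergic UMIs came from the AGRP-like cluster 1, without which the ratio was -1.18. Pbx3 was at 67.4 against 149 CPM (log2 ratio -1.14, interval -1.43 to -0.86), but at -0.53 without cluster 8. Isl1, a LIM homeodomain factor of several ARC types, was at 79.1 against 141 CPM (log2 ratio -0.83, interval -1.11 to -0.57), short of 2-fold. Dlx2, under the minimum with 3 and 39 UMIs, was at 1.67 against 9.02 CPM, and Dlx5 and Dlx6 held 5 and 30 UMIs and 4 and 25 UMIs.

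Of 56 transcription factors of glutamatergic and other hypothalamic neurons, 21 reached the minimum, 4 were at least 2-fold higher in glutamatergic nuclei and none in GABAergic nuclei, against 1.11% and 1.21% of all genes. The median was 0.11. Sim1, which specifies PVH neurons, was at 30.7 against 3.01 CPM (log2 ratio 3.35, interval 2.46 to 4.35), with 55 and 13 UMIs. Cluster 16 gave 65.5% of its glutamatergic UMIs. The ratio was 1.88 without that cluster, on fewer UMIs than the minimum, and 2.26 within clusters. Whether these were PVH nuclei that met the ARC hashtag rule was not tested. Bcl11b was at 30.7 against 9.48 CPM (log2 ratio 1.69, interval 1.08 to 2.31) and the nuclear receptor Nr2f2 at 29.5 against 10.6 CPM (log2 ratio 1.47, interval 0.88 to 2.08), with 56.4% and 56.6% of their glutamatergic UMIs from the VMH-like cluster 10, and their ratios without it were 0.77 and 0.68. Ebf1 held 30 and 30 UMIs (log2 ratio 1.27), of which cluster 2 gave 90% in glutamatergic nuclei.

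Few neuropeptide genes were past 2-fold. Of 16 that reached the minimum 2 were at least 2-fold higher in glutamatergic and 0 in GABAergic nuclei (1.11% and 1.21% of all genes), with a median of 0.02. Tac2, which encodes neurokinin B, was at 44.0 CPM in glutamatergic and 14.3 CPM in GABAergic nuclei (log2 ratio 1.62, interval 1.12 to 2.12), and 83.5% of its glutamatergic UMIs came from cluster 7, without which the ratio was -0.41. Bdnf, a neurotrophin gene of VMH neurons, was at 14.5 against 5.78 CPM (log2 ratio 1.33, interval 0.48 to 2.18). Without cluster 10 it was at 0.60, on fewer UMIs than the minimum. Kiss1 held 2 and 1 UMIs in the classes, too few to compare.

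Agrp, the feeding peptide of AGRP neurons, was at 133 CPM in glutamatergic and 182 CPM in GABAergic nuclei (log2 ratio -0.46, interval -0.67 to -0.25), and Npy, which the same neurons release, at 83.6 against 134 CPM (log2 ratio -0.68, interval -0.95 to -0.42). Pomc, the precursor of melanocortin peptides, was level (129 against 126 CPM, log2 ratio 0.04). Their UMIs were widespread: Agrp was seen in 47.1% of the glutamatergic and 57.3% of the GABAergic nuclei and in 47.1% of the nuclei of the glial and tanycyte clusters, where its level was 241 CPM. Oxt, the oxytocin gene of PVH neurons, was seen in 92.6% of the glutamatergic and 92.9% of the GABAergic nuclei and in 92.6% of glial and tanycyte nuclei. Oxt shares in both classes were thus at the level of nuclei that should lack it, the Agrp level of glial and tanycyte nuclei was above that of either class, and the part of free RNA in the peptide ratios was not tested.

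Genes of the secretory granule did not separate the classes by 2-fold. All 16 reached the minimum, none was past 2-fold either way (1.11% and 1.21% of all genes), and the median was -0.04. Pcsk1n, an inhibitor of prohormone convertase, was at 557 against 647 CPM (log2 ratio -0.22, interval -0.32 to -0.11) and Pam, which amidates peptides, at 374 against 334 CPM (log2 ratio 0.17, interval 0.03 to 0.30).

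Of 12 genes for amines and acetylcholine 5 reached the minimum, of which 3 were at least 2-fold higher in GABAergic nuclei, where 1.21% of all genes were, and none in glutamatergic nuclei (1.11%), with a median of -1.24. Beside Chat these were Th, the rate-limiting enzyme of dopamine synthesis, at 5.02 CPM in glutamatergic and 13.6 CPM in GABAergic nuclei (log2 ratio -1.44, interval -2.64 to -0.42), and Ddc, the next enzyme, at 22.3 against 52.7 CPM (log2 ratio -1.24, interval -1.76 to -0.75). Cluster 13 gave 39.0% of the GABAergic Th UMIs, and the ratio without it was -0.94, on fewer UMIs than the minimum. Ddc was at -1.42 without cluster 2 and -0.79 within clusters. The vesicular monoamine transporter Slc18a2 was at 21.7 against 31.2 CPM (log2 ratio -0.52, interval -1.08 to 0.00), and Maoa, which breaks amines down, at 22.8 against 20.6 CPM (log2 ratio 0.15, interval -0.42 to 0.70).

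Of hormone and metabolic receptors, 3 of 20 were at least 2-fold higher in GABAergic nuclei (1.21% of all genes) and none in glutamatergic nuclei (1.11%), with a median of -0.20. Ghr, the growth hormone receptor, was at 205 CPM in glutamatergic and 481 CPM in GABAergic nuclei (log2 ratio -1.23, interval -1.39 to -1.07). Cluster 1 gave 57.0% of its GABAergic UMIs, the ratio without that cluster was -0.69, and within clusters it was 0.01. Calcr, the calcitonin receptor, was at 16.2 against 47.4 CPM (log2 ratio -1.55, interval -2.17 to -0.99), and -1.34 without cluster 1.

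Lepr, the leptin receptor, was at 23.4 CPM in glutamatergic and 49.9 CPM in GABAergic nuclei (log2 ratio -1.09, interval -1.61 to -0.61), with 42 and 216 UMIs. Cluster 1 gave 54.6% of its GABAergic UMIs, and the ratio was -0.53 without that cluster and -0.69 within clusters. Esr1, an oestrogen receptor, was higher in glutamatergic nuclei but short of 2-fold (166 against 108 CPM, log2 ratio 0.62, interval 0.41 to 0.83), and its ratio without cluster 7 was -0.47. Nr3c2, the mineralocorticoid receptor, was at 148 against 179 CPM (log2 ratio -0.28) and the thyroid hormone receptor Thrb at 201 against 213 CPM (-0.09).

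Among receptors for peptides, amines and lipids 25 reached the minimum, of which 4 were at least 2-fold higher in glutamatergic and 2 in GABAergic nuclei, where all genes gave 1.11% and 1.21%. The cannabinoid receptor Cnr1 was at 35.1 CPM in glutamatergic and 10.4 CPM in GABAergic nuclei (log2 ratio 1.75, interval 1.18 to 2.34) and stayed past 2-fold without cluster 2 (1.32) and within clusters (1.32). The dopamine receptor Drd2, with 31 and 19 UMIs, was at 17.3 against 4.39 CPM (log2 ratio 1.98, interval 1.11 to 2.88). Without cluster 7 it was at 0.59, on fewer UMIs than the minimum. Gpr149, an orphan receptor, was at 25.6 against 11.8 CPM (log2 ratio 1.12, interval 0.51 to 1.72) and at -0.55 without cluster 10, whose markers include it.

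On the other side, Npy2r, a receptor for neuropeptide Y and peptide YY, was at 17.3 against 49.7 CPM (log2 ratio -1.52, interval -2.12 to -0.98) and Crhr1, a receptor for corticotropin-releasing hormone, at 4.46 against 12.9 CPM (log2 ratio -1.54, interval -2.82 to -0.46). The AGRP-like cluster 1 gave 49.3% and 44.6% of their GABAergic UMIs. Without it the ratios were -1.17 and -1.19, that of Crhr1 on fewer UMIs than the minimum. Within clusters they were 0.01 and -0.27. Short of 2-fold, the opioid receptor Oprm1 was higher in GABAergic nuclei (53.5 against 95.7 CPM, log2 ratio -0.84, interval -1.18 to -0.52) and the orexin receptor Hcrtr2 in glutamatergic nuclei (81.9 against 44.6 CPM, log2 ratio 0.88, interval 0.56 to 1.19).

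Of 15 genes of glutamate handling 11 reached the minimum, none of these was past 2-fold and no interval excluded equal levels. Of 11 genes of GABA and glycine handling 6 reached the minimum and none was past 2-fold. Among all genes 1.11% were past 2-fold on the glutamatergic and 1.21% on the GABAergic side. Abat, which breaks GABA down, was at 181 CPM in glutamatergic and 208 CPM in GABAergic nuclei (log2 ratio -0.20, interval -0.39 to -0.02).

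Receptors for the transmitters differed by less than 2-fold with 1 exception. Among all genes 1.11% were past 2-fold on the glutamatergic and 1.21% on the GABAergic side. Of 28 glutamate receptor genes none was past 2-fold, with a median of -0.04. The metabotropic receptor Grm7 was higher in glutamatergic nuclei (1147 against 769 CPM, log2 ratio 0.58, interval 0.50 to 0.66), and the AMPA receptor subunit Gria4 (731 against 1039 CPM, log2 ratio -0.51, interval -0.60 to -0.42) and the kainate receptor subunit Grik2 (912 against 1267 CPM, log2 ratio -0.47, interval -0.55 to -0.39) were higher in GABAergic nuclei. Of 21 genes of GABA and glycine receptors, the glycine receptor subunit Glra3 was past 2-fold, at 191 CPM in glutamatergic and 62.4 CPM in GABAergic nuclei (log2 ratio 1.61, interval 1.38 to 1.85). Cluster 7 gave 57.0% of its glutamatergic UMIs, and the ratio was 0.89 without it.

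Ion channel genes were mostly within 2-fold, as were all genes, of which 1.11% were past it on the glutamatergic and 1.21% on the GABAergic side. For calcium, sodium and TRP channels 3 of 29 genes were past it on the glutamatergic and 1 on the GABAergic side. Cacna2d1, an auxiliary subunit of calcium channels and the target of gabapentin, had 1310 and 1169 UMIs. Its level was 730.0 CPM in glutamatergic and 270.3 CPM in GABAergic nuclei (log2 ratio 1.43, interval 1.32 to 1.55), and the ratio was 1.07 without cluster 10, which gave 39.2% of its glutamatergic UMIs, and 0.33 within clusters. Of 29 calcium, sodium and TRP channel genes Cacna1g, a T-type calcium channel (80.2 against 37.9 CPM, log2 ratio 1.08, interval 0.75 to 1.41), and Trpc5 (402 against 197 CPM, log2 ratio 1.03, interval 0.88 to 1.17) were also at least 2-fold higher in glutamatergic nuclei. Both fell short without cluster 7 (0.35 and 0.46). Trpc4, the close relative of Trpc5, lay on the GABAergic side (37.3 against 74.9 CPM, log2 ratio -1.004, interval -1.41 to -0.62), and was at -0.74 without cluster 1.

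Of 36 potassium channel genes 1 was past 2-fold on each side, where 1.11% (glutamatergic) and 1.21% (GABAergic) of all genes were. Kcnmb4, a subunit of BK channels, was at 34.0 against 13.4 CPM (log2 ratio 1.34, interval 0.80 to 1.89), with 1.15 without cluster 2. The leak channel gene Kcnk9 was at 7.24 against 18.7 CPM (log2 ratio -1.37, interval -2.34 to -0.52), with 0.04 within clusters. Kcnip4, a modulator of A-type potassium channels, was higher in glutamatergic nuclei at 5837 against 3616 CPM, short of 2-fold (log2 ratio 0.69, interval 0.66 to 0.73).

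Of 80 synaptic adhesion and axon guidance genes 75 reached the minimum. Of these, 9 were at least 2-fold higher in glutamatergic nuclei, where 1.11% of all genes were, and 2, Nrxn3 and the ephrin receptor Epha3, in GABAergic nuclei, where 1.21% were. The median was 0.16, with 36 intervals above and 22 below 0, where 7.29% and 9.02% of all genes had such intervals. The secreted guidance cue Slit2 was at 163 CPM in glutamatergic and 62.2 CPM in GABAergic nuclei (log2 ratio 1.39, interval 1.14 to 1.63), and its ratio was 1.59 without cluster 2. Its relative Slit3 was at 197 against 70.5 CPM (log2 ratio 1.48, interval 1.25 to 1.71), but 66.0% of its glutamatergic UMIs came from cluster 10, and the ratio was 0.28 without it.

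The protocadherins Pcdh11x (571 against 216 CPM, log2 ratio 1.40, interval 1.27 to 1.53) and Pcdh15 (1082 against 536 CPM, log2 ratio 1.01, interval 0.92 to 1.10) drew 55.8% and 38.8% of their glutamatergic UMIs from cluster 7, and were at 0.73 and 0.77 without it. The semaphorins Sema3a (30.7 against 14.3 CPM, log2 ratio 1.10, interval 0.55 to 1.64) and Sema5a (121 against 58.5 CPM, log2 ratio 1.05, interval 0.78 to 1.32) repel or guide axons. Without the cluster giving the largest share of their UMIs they were at 1.05 and 0.97. The cadherins Cdh6 and Cdh7 had ratios of 1.27 and 1.14, with 41.8% and 40.6% of their glutamatergic UMIs from cluster 10, and 0.87 and 0.68 without it. Epha3 was at 27.3 against 56.6 CPM (log2 ratio -1.05, interval -1.53 to -0.61), and at -0.81 without cluster 1.

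Of 34 genes of synaptic vesicles and calcium binding 3 were at least 2-fold higher in glutamatergic and none in GABAergic nuclei, against 1.11% and 1.21% of all genes. Calb1, which encodes the calcium buffer calbindin, was at 135 CPM in glutamatergic and 55.7 CPM in GABAergic nuclei (log2 ratio 1.28, interval 1.01 to 1.54), and at 1.23 without cluster 7. The calcium sensor Syt2 was at 30.1 against 12.5 CPM (log2 ratio 1.27, interval 0.70 to 1.84), and Stxbp6, a SNARE regulator, at 64.1 against 29.1 CPM (log2 ratio 1.14, interval 0.76 to 1.51). Both fell short of 2-fold when a cluster was left out, Syt2 at 0.78 without cluster 7 and Stxbp6 at 0.62 without cluster 16. General parts of the release machinery had ratios near 0, such as Syt1 (1109.6 against 1097 CPM, log2 ratio 0.02) and Rims1 (732 against 736 CPM, -0.01).

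For some of the genes that differed most between the classes, nuclei that met neither rule lay between them. Nrxn3 was at 1131 CPM in glutamatergic nuclei, 1602 CPM in nuclei with Slc17a6 and 1 GABA gene, 2477 CPM in nuclei with none of the 4 genes, 3169 CPM in nuclei with 1 GABA gene only and 3400.0 CPM in GABAergic nuclei. Dlx6os1 followed the same order, at 16.2, 27.0, 48.4, 74.0 and 87.9 CPM. Pde4b ran the other way, at 901, 670.1, 499, 318 and 265 CPM, as did Cacna2d1 (730.0, 679.9, 414, 317 and 270.3 CPM).

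The 99 nuclei with Slc17a6 and 2 or 3 GABA genes lay between the classes for Nrxn3 (2289 CPM), Dlx6os1 (34.6 CPM) and Pde4b (407 CPM). Not all genes did so. Pomc, at 129 and 126 CPM in the classes, was higher in all 4 other groups (159 to 319 CPM). Lepr did not follow the order either: it was at 67.6 CPM in the 99 nuclei, above its level in GABAergic nuclei, though the intervals of the 2 overlapped (49.3 to 90.5 against 43.5 to 57.1 CPM). Whether such nuclei were single neurons, pairs of nuclei or nuclei with free RNA was not tested, and no doublet caller was run on the classes.

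**Figure D4:**
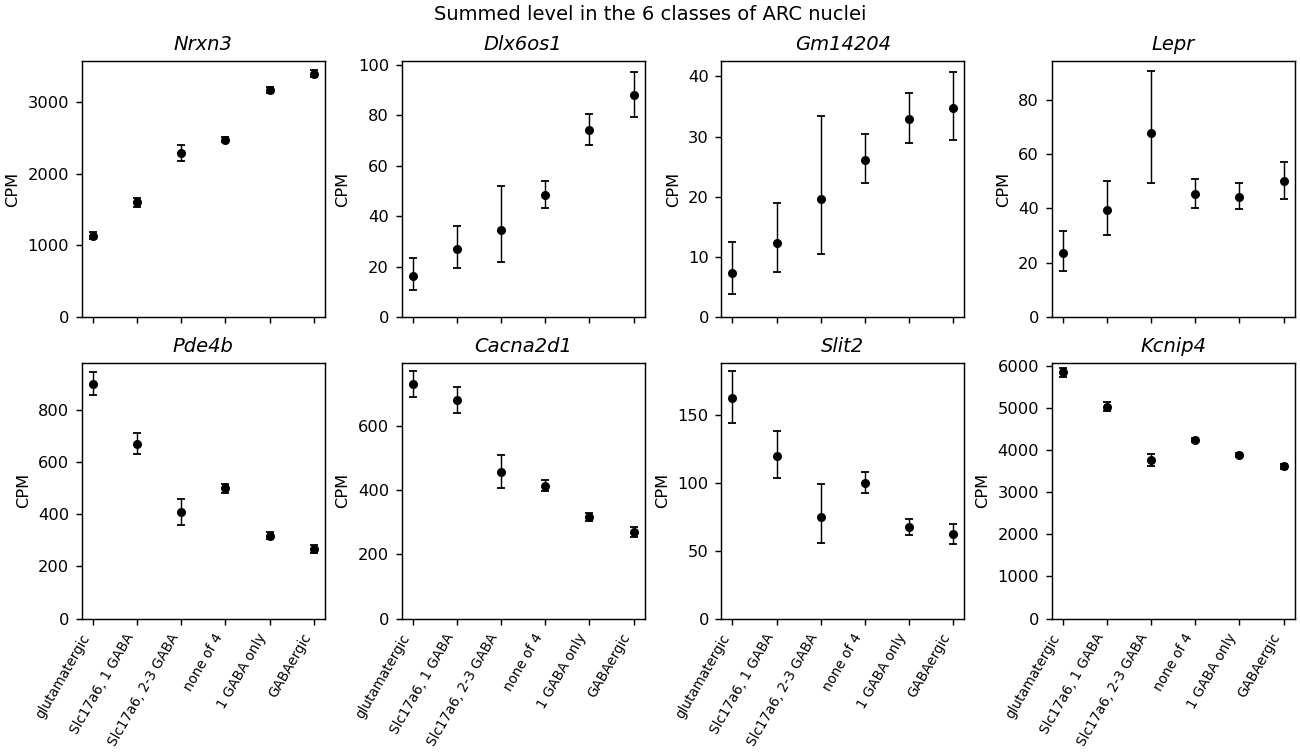
Summed level in CPM, with exact 95% Poisson intervals, of 8 genes in the 6 classes of ARC nuclei made by the 4 rule genes; axes start at 0. Nrxn3, Dlx6os1 and Gm14204 were lowest in glutamatergic and highest in GABAergic nuclei, Pde4b, Cacna2d1, Slit2 and Kcnip4 the reverse, and Lepr was highest in nuclei with Slc17a6 and 2 or 3 GABA genes.

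The same contrast in nuclei outside the ARC hashtag rule, which shared no nucleus with the ARC classes but came from the same library, gave 179 of 12387 genes at least 2-fold higher in glutamatergic (1.45%) and 131 in GABAergic nuclei (1.06%). Of the 124 genes higher in ARC glutamatergic nuclei 115 could be compared there: 25 were past 2-fold the same way, 78 lay above 0 and 5 were past 2-fold the other way. Of the 135 higher in ARC GABAergic nuclei 124 could be compared: 24 were past 2-fold the same way, 75 lay below 0 and 2 were past 2-fold the other way. Of all 11151 genes compared in both, 41.7% lay above 0 outside the ARC rule and most of the rest below. The 78 of 115 above 0 were thus a larger share than among all genes. The 75 of 124 below 0 were close to the share of all genes.

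Outside the ARC rule Dlx6os1 had a log2 ratio of -4.37, Lhx1 -3.01, Gm14204 -2.74, Dlx1 -2.09, Nrxn3 -1.84 and Th -1.47, all past 2-fold on the GABAergic side as in the ARC. On the glutamatergic side Sim1 was at 3.52, Chst8 at 2.20, Adamts2 at 2.08, Cacna2d1 at 1.76 and Pde4b at 1.45. Genes that drew many of their UMIs from the AGRP-like or KNDy-like clusters went both ways. Besides Adamts2, Lhx5 (1.30), Col2a1 (1.09) and Rasgrp1 (-1.07) were past 2-fold as in the ARC. Ghr was at 0.98, Calcr at 0.71, Tac2 at 0.16, Rxfp1 at -0.21 and Lepr at -0.52, and none of these 5 was past 2-fold as in the ARC.

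**Figure D5:**
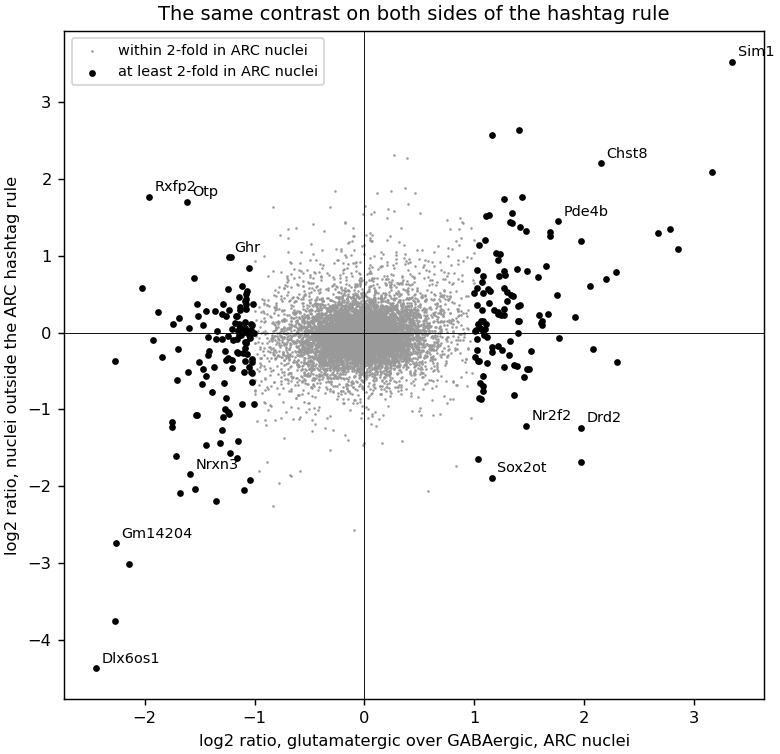
Log2 ratio, glutamatergic over GABAergic, in ARC nuclei (x axis) and in nuclei outside the ARC hashtag rule (y axis) for genes compared in both; black points were at least 2-fold apart in ARC nuclei. Dlx6os1, Gm14204 and Nrxn3 lie at the lower left, Sim1, Chst8 and Pde4b at the upper right, and Otp, Rxfp2, Drd2, Nr2f2 and Sox2ot in the opposite corners.

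UMIs of markers of other cell types were present in both classes. Summed over each list, in glutamatergic against GABAergic nuclei, oligodendrocyte markers were at 114 against 85.3 CPM, microglial markers at 120.4 against 110.1 CPM, tanycyte markers at 116 against 109 CPM, astrocyte markers at 16.7 against 25.7 CPM, endothelial markers at 6.69 against 8.55 CPM and pituitary markers at 4.46 against 5.78 CPM. Markers of oligodendrocyte precursors were at 17.8 against 7.86 CPM, where Vcan gave 30 of 32 glutamatergic UMIs. The microglial marker P2ry12 alone was at 89.7 against 80.9 CPM. It overlaps Med12l on the other strand, and whether UMIs of one gene were counted for the other is not known. Cldn5, Gh and Prl were at 0 UMIs in both classes. Of 5 neuronal markers none was past 2-fold, and Rbfox3, which encodes the NeuN protein used for the sort, was at 344 CPM in glutamatergic and 214 CPM in GABAergic nuclei (log2 ratio 0.68, interval 0.53 to 0.83).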

How the data were processed

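The deposited files were a matrix of UMI counts per gene and barcode, which the authors made with Cell Ranger (5.0 in the submitters' processing notes, 4.0.0 in the matrix header) against mm10, and hashtag counts of the same barcodes; Seurat 4 is named for later steps. Use of intronic reads and of strand: not given in the sources used here. Barcodes with over 800 and under 5000 genes, at most 12000 UMIs and at most 1% mitochondrial UMIs were kept (10170), and those with ARC hashtag UMIs at least 0.8 times the PVH hashtag were ARC nuclei. No per-nucleus labels of cell type were used, and no doublet caller was run.

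UMIs were summed over each class and divided by the class total to CPM. Ratios have exact conditional binomial intervals, CPM exact Poisson and shares exact binomial intervals. Genes with at least 50 UMIs over both classes were compared, and at least 2-fold was the threshold. Named genes were the rule genes, 15 genes a side ranked by the interval bound nearest to 0, members of gene lists past 2-fold, the 4 members of each list with most CPM, and markers; a few others were named after their values were seen. Clusters came from scanpy 1.11.5 (2000 variable genes, 30 components, 20 neighbours, Leiden resolution 0.55, without the rule genes, Gad1os and Gm14204). Hashtags were also called with HTODemux in Seurat 5.3.0 at quantile 0.8. Intervals were tried on simulated counts drawn independently for each gene from its pooled ARC level. These held no variation between nuclei, clusters or mice, so the trial covers counting error only. Gene positions are from GENCODE M21 (32235 of 32285 identifiers matched), promoter sequences from RefSeq. Python 3.11.15, numpy 2.4.6, scipy 1.17.1, pandas 2.3.3 and R 4.3.3 were used. The members and lists were chosen with earlier results of these data known.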

Additional observations from a re-analysis of the deposited data

Results flagged for a closer look

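In 7 genes the contrast ran past 2-fold one way in ARC nuclei and past 2-fold the other way in nuclei outside the ARC hashtag rule. The difference between these groups of nuclei was not tested, since each was a single pooled group of the same library. Otp, a homeodomain gene, had a log2 ratio (glutamatergic over GABAergic) of -1.61 in ARC nuclei and 1.70 outside. The relaxin family receptor Rxfp2 was at -1.96 and 1.76, on 10 glutamatergic UMIs in the ARC. Some genes were higher in the glutamatergic class of the ARC and in the GABAergic class outside: the dopamine receptor Drd2 at 1.98 and -1.24, the nuclear receptor Nr2f2 at 1.47 and -1.21, B130024G19Rik at 1.97 and -1.69, and Gm29683 at 1.04 and -1.65. B130024G19Rik overlaps Nr2f2 on the other strand. Whether UMIs of one gene were counted for the other is not known, and they may not be separate cases. The same direction held for Sox2ot, a long non-coding RNA that spans Sox2, at 1.16 and -1.89, with 232 and 104 CPM in the ARC classes.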

How the results depend on the processing

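No paired analysis was possible because the library was 1 pooled sample, and leaving out a replicate was not possible either. Of the alternatives, 17 were planned and 6 were chosen after seeing the data. Against 350 glutamatergic and 757 GABAergic nuclei, a hashtag ratio of at least 2 gave 38 and 98. With 4227 genes then compared, 72 were higher in glutamatergic nuclei, and 26 of the 124 and 17 of the 135 main calls were among its calls. At least 2 Slc17a6 UMIs gave 105 glutamatergic nuclei and 462 genes higher in GABAergic nuclei, and all 3 GABA genes gave 103 GABAergic nuclei and 64 such genes, which held 101 and 26 of the 135. Thinning each nucleus to 1000 UMIs gave 167 and 64 nuclei, and 32 and 12 genes of 738 compared, 8 and 6 of them shared. Against 124 glutamatergic and 135 GABAergic genes, a minimum of 20 UMIs gave 292 and 396, a minimum of 200 gave 40 and 37, and no minimum gave 1727 and 1014. A fold of 1.5 gave 446 and 617, and a fold of 3 gave 32 and 28. The other settings moved none of these counts by more than 1.5 times. Without cluster 7, 97 and 156 genes were past 2-fold, 58 and 85 of them shared with the main result.

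Of 1075 log2 ratios of 71 named genes under the alternatives, 910 stayed within the interval of the main value, 151 moved beyond it in the same direction and 14 changed sign. Another 203 rested on fewer than 50 UMIs and were left out, of which 14 had the opposite sign. The changes of sign were 9630013A20Rik at -0.79 with at least 2 Slc17a6 UMIs and -0.34 without clusters 17 to 19, Epha3 at 0.25 with all 3 GABA genes, Rxfp1 at -0.028, Tac2 at -0.41 and Nr5a2 at -0.94 without cluster 7, Gpr149 at -0.55 without cluster 10, and, within clusters, Col24a1 at -0.35, Rasgrp1 at 0.070, Ghr at 0.015, Npy2r at 0.0052, Kcnk9 at 0.041, Cdh6 at -0.013 and Corin at 0.76. The cause of these changes was not tested. The cluster with the highest Agrp level was cluster 18, of 20 nuclei, so the AGRP-like cluster 1 was left out as an added alternative, which gave 97 and 113 genes.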
